A study of Mus musculus with 6 samples.

Results

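The genes described here are those of calcitonin and adrenomedullin signalling in the mouse uterus on gestational day 4. The 9 members were taken by symbol, as the rows named Calca, Calcb, Adm, Adm2, Calcrl, Calcr, Ramp1, Ramp2 or Ramp3, out of 21900 genes. Each of the 9 was found in the files. The study profiled RNA of whole uteri in 6 libraries, of which 3 carry the genotype label Mettl3 f/f and the other 3 the label Mettl3 d/d. The females were 6 to 8 weeks old, were mated with fertile males and were killed on day 4, with the vaginal plug taken as day 1. Both genotypes share the tissue, the day and the mating. Mettl3 encodes the catalytic subunit of the N6-methyladenosine writer. By the usual notation f/f is a floxed allele and d/d its deleted form. The labels name no Cre driver, deleted exons or strain background. They do not say that replicates were separate animals, and the p-values therefore cover only the variation among these libraries.

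Calca encodes calcitonin and, by alternative splicing, calcitonin gene-related peptide (CGRP). Calcb encodes a second form of CGRP. Adm and Adm2 encode the vasodilator peptides adrenomedullin and adrenomedullin 2, the latter also called intermedin. Calcrl encodes a receptor that reaches the cell surface with a small partner protein, and the partner sets which peptide it binds: with Ramp1 it forms the CGRP receptor, and with Ramp2 or Ramp3 it forms adrenomedullin receptors. Calcr encodes the calcitonin receptor, which with the same partners binds amylin. The receptors act mainly through cyclic AMP. In the rodent uterus, Calca is known as an epithelial gene that progesterone raises before implantation, and adrenomedullin is known for its part in vessels and in fertility.

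Values are FPKM, in which fragments are divided by gene length and library total, so levels can be set beside each other between genes. The unit was inferred, because the headers name none. The libraries summed to 535043 to 625575 FPKM. Absolute depth is unknown. With f/f replicate 1 set to 1, relative depth was 0.935 to 1.01. Spearman correlations across genes were 0.984 to 0.988 between f/f libraries and 0.951 to 0.965 between d/d libraries. Mettl3 itself measured 30.3, 29.8 and 26.3 FPKM in the f/f group, against 42.9, 30.1 and 46.5 in the libraries labelled d/d. A value over the whole gene does not check a deletion of unknown extent, so every direction below rests on the labels. The tissue markers were present in each library: the epithelial keratin gene Krt8 at 81.9 to 280 FPKM, the smooth muscle gene Acta2 at 330 to 2115 and the stromal collagen gene Col1a1 at 177 to 492.

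No member passed the test between the genotypes. Of the 9 members, 6 reached at least 1 FPKM in at least 3 libraries and were tested, and 0 of these 6 were called by limma (adjusted p under 0.05 over all genes tested). Among all 12979 genes tested, 7.30% were called, 3.49% as higher and 3.81% as lower in d/d. At an unadjusted p under 0.05 there were 3 of the 6 members, where 26.7% of all genes had such a p. The same 3 members, Calca, Ramp1 and Ramp2, were lower in every d/d library than in any f/f library. Over all genes tested, 17.8% showed such a separation downward and 35.9% a separation in either direction. The median log2 fold change of the 6 tested members was -0.35, against 0.02 over all genes tested. A filter that asks for 1 FPKM in 3 libraries leaves out Calcb, Adm2 and Calcr, which are given by library.

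**Figure D1:**
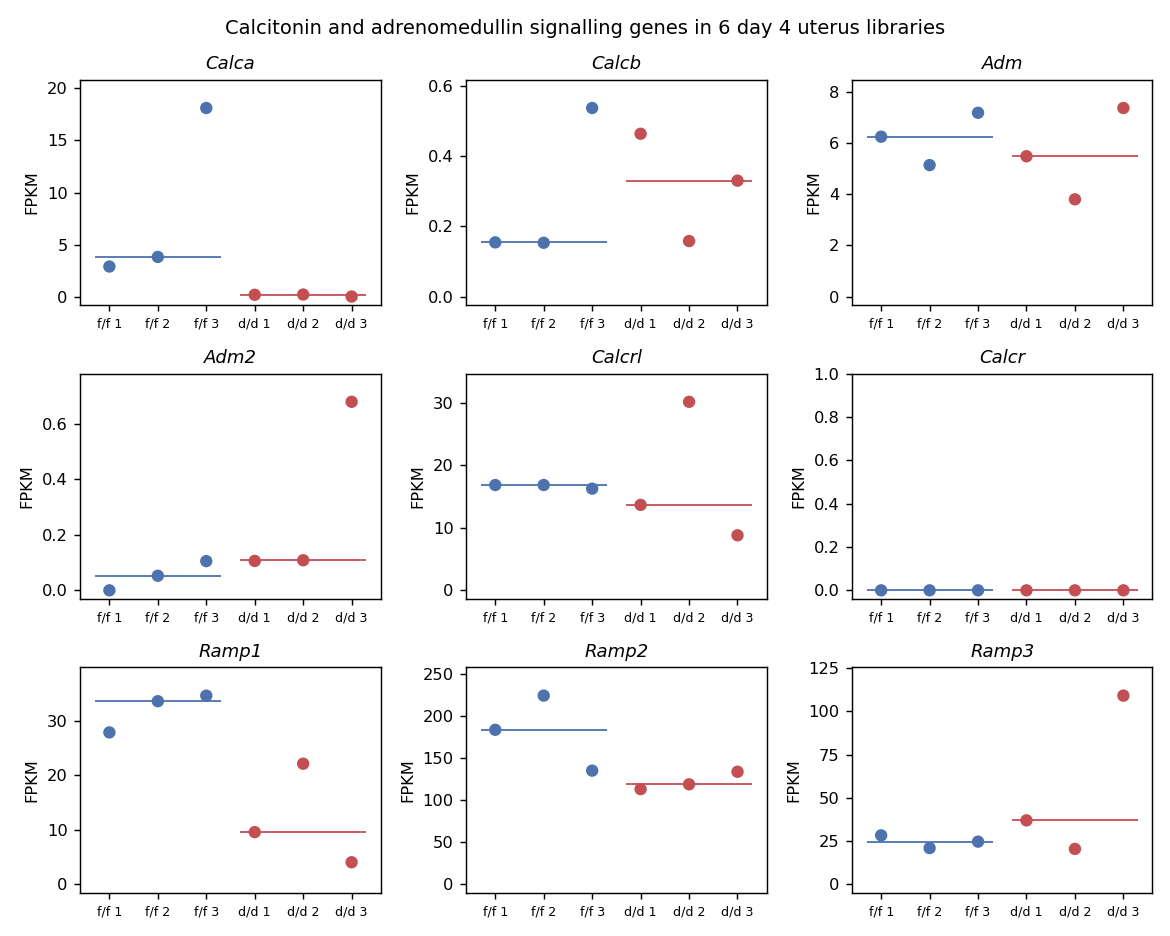
FPKM (vertical axis, linear, a scale of its own in each panel) of the 9 members in the 3 f/f libraries (blue) and the 3 d/d libraries (red), with each point a library and each line the median of a genotype. Calca, Ramp1 and Ramp2 show no overlap between the genotypes, Ramp3 and Adm2 are high in d/d replicate 3, and Calcr lies at 0 in all 6 libraries.

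Calca, the gene of calcitonin and alpha CGRP (ENSMUSG00000030669, GRCm38 chromosome 7, 114631478 to 114636357, minus strand), had the largest difference among the tested members. Its f/f values were 2.88, 3.81 and 18.1 FPKM. Its d/d values were 0.169 and 0.193 FPKM in replicates 1 and 2, and replicate 3 lists it as 0. The f/f libraries differed among themselves, with replicate 3 high, and yet the lowest of them was above each d/d library. The log2 fold change on the log2(FPKM + 1) scale was -2.67 (SE 0.60, 95% interval -4.11 to -1.23, limma adjusted p = 0.0504), lower in 3 of 3 d/d libraries. Calca passed the filter on low values through the f/f libraries alone, and without that filter the adjusted p was 0.0776. The exact permutation p (two-sided) was 0.1, the smallest that 3 against 3 libraries allow. Of 13 alternatives 3 made the call, namely a pseudocount of 0.1 (log2 fold change -4.91, adjusted p = 0.0274), libraries scaled to 1 median (adjusted p = 0.0485) and leaving out f/f replicate 3 (log2 fold change -1.95, adjusted p = 0.0432). The other 10 did not, with adjusted p from 0.05002 to 0.168.

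Calca ranked low among the genes of d/d libraries and from low to moderate in f/f libraries. Of the genes above 0 in a library, 30.0%, 33.8% and 67.0% had a lower value than Calca in f/f replicates 1, 2 and 3, against 9.97% and 10.2% in d/d replicates 1 and 2. A gene value cannot tell the peptides apart. Transcript Calca-202, which ends in the calcitonin exon, and transcript Calca-201, which goes on to the CGRP exons, share the first 227 coding bases and 337 exonic bases. Those are 40.6% of the exonic bases of Calca-202 and 33.9% of those of Calca-201.

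Calca is known from epithelium, and the epithelial and gland markers are therefore given beside it; their part in its difference was not tested. The summed level of 8 epithelial markers was 1101 to 1308 FPKM in f/f libraries and 1807, 741 and 2481 FPKM in d/d replicates 1, 2 and 3. Its members differed in direction: Epcam and Krt7 rose, while Cldn3 was below f/f in each d/d library (433 to 483 FPKM against 390, 76.3 and 294, limma adjusted p = 0.266). The summed level of 6 gland markers was 25.4, 36.6 and 64.8 FPKM in the f/f group, highest in replicate 3 as Calca was. The d/d sums were 68.2, 16.1 and 20.7 FPKM, and the highest of them was mostly Cxcl15 at 49.1 FPKM. The sum of d/d replicate 3 was mostly Sox9 at 18.6 FPKM. On the same list 1 of 4 tested genes was called lower, where 3.81% of all genes tested were. That gene was Ttr, the transthyretin gene (limma adjusted p = 0.0258). It had 1.89, 4.696 and 6.94 FPKM with f/f and 0.118 in replicate 1 of d/d, with the other 2 d/d libraries listed as 0. Ttr too passed the filter on low values through the f/f libraries alone. Of the 3 genes not called, Foxa2 and Cxcl15 had negative log2 fold changes (-0.81 and -1.60) and Sox9 a positive one (1.02). In whole tissue, fewer cells of a type and less RNA per cell cannot be told apart.

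Calcb, the gene of beta CGRP (ENSMUSG00000030666, chromosome 7, 114718643 to 114723365, plus strand), lies 82285 bp from Calca and was near the bottom of the measured range. The f/f libraries held 0.155, 0.153 and 0.538 FPKM and the d/d libraries 0.465, 0.158 and 0.331. The genotypes overlapped (exact two-sided permutation p = 0.8, n = 3 each). In f/f libraries Calca stood above Calcb in 3 of 3 cases, while in d/d libraries the ranges of the paralogs overlapped. The coding sequences of the paralogs are alike over a stretch of 170 bases with 93.5% identity, in which 11 bases differ, and the longest identical run is 60 bases. A read that lies within such a run cannot be placed by its sequence, so the values of the pair depend on how the authors' software assigned them. The stretch is shown because it holds the region from which the pair can be confused. It runs over several exons of Calca-201 (GRCm38, minus strand, coding bases 200 to 369) and Calcb-201 (plus strand, coding bases 203 to 372), with the differing bases in capitals.
Calca: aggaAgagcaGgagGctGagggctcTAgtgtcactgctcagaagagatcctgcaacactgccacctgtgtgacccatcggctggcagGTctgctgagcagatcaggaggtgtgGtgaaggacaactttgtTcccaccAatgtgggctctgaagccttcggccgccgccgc
Calcb: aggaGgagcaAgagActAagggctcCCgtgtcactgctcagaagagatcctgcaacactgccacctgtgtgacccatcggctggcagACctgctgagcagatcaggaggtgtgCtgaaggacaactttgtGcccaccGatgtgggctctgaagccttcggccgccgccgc

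Adm, the adrenomedullin gene (ENSMUSG00000030790, chromosome 7, 110627661 to 110629820, plus strand), overlapped between the genotypes. Its level was 6.24, 5.13 and 7.17 FPKM with f/f and 5.47, 3.79 and 7.36 with d/d. The lowest and the highest value both came from d/d libraries, replicates 2 and 3. Means were 6.18 ± 1.02 and 5.54 ± 1.78 FPKM (SD, n = 3 each), and the log2 fold change was -0.16, with limma's adjusted p = 0.708 (95% interval -0.75 to 0.43) and an exact permutation p = 0.7. Without d/d replicate 2 its sign turned (log2 fold change 0.045). Adm was the most abundant ligand gene in the 3 d/d libraries and in f/f replicates 1 and 2, and Calca stood above it in f/f replicate 3. An antisense gene, Gm28863, spans Adm without overlap of exons.

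Adm2, the intermedin gene (ENSMUSG00000054136, chromosome 15, 89322720 to 89324731, plus strand), was barely measured. Replicate 1 of f/f lists it as 0, and replicates 2 and 3 hold 0.0525 and 0.105 FPKM. The d/d libraries hold 0.106, 0.108 and 0.679 FPKM. Each d/d value was above each f/f value (exact permutation p = 0.1, n = 3 each), but 2 of the 3 d/d values lie next to f/f replicate 3. Those values are 2.02 and 2.06 times the lowest value above 0, and f/f replicate 3 is 2.00 times that value. The highest, d/d replicate 3, is 12.9 times that value. Adm2 had no adjusted p, because it did not reach the level set for testing.

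The receptor gene Calcrl (ENSMUSG00000059588, chromosome 2, 84330626 to 84425411, minus strand) spread widely among the d/d libraries. Its f/f level was 16.8, 16.8 and 16.2 FPKM, and its d/d level 13.7, 30.1 and 8.79 FPKM. The coefficient of variation was 2.00% in f/f, against 63.8% in d/d libraries. Replicate 2 of d/d lay above and replicates 1 and 3 of d/d lay below the f/f values. The log2 fold change was -0.10 (95% interval -1.07 to 0.88, limma adjusted p = 0.902), an interval that leaves room for a change of either sign. It was 0.28 without d/d replicate 3 and -0.56 without d/d replicate 2. Calcr, the calcitonin receptor gene (ENSMUSG00000023964, chromosome 6, 3685680 to 3764714, minus strand), was listed at 0 in all 6 libraries. A listed 0 can be a failed estimate in these files, since Ide, a widely expressed peptidase gene, and Pdpn were also listed at 0 in all 6.

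Ramp1, the partner gene that makes the CGRP receptor (ENSMUSG00000034353, chromosome 1, 91179822 to 91225196, plus strand), was lower in each d/d library than in any f/f library. The f/f values were 27.9, 33.6 and 34.6 FPKM, and the d/d values 9.56, 22.1 and 4.03 FPKM. The d/d libraries spread more than the f/f libraries, with replicate 2 the closest to f/f. Means were 32.1 ± 3.64 and 11.9 ± 9.28 FPKM (SD, n = 3 each), a ratio of 2.69 in favour of f/f. On the log2 scale the difference was -1.62 (SE 0.52, 95% interval -2.88 to -0.36), which did not pass (limma adjusted p = 0.113, exact permutation p = 0.1). Without d/d replicate 2 it was -2.18 and passed (adjusted p = 0.0221).

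Ramp2, the partner gene of the main adrenomedullin receptor (ENSMUSG00000001240, chromosome 11, 101246028 to 101259546, plus strand), was the most abundant member in every library. It reached 184, 224 and 135 FPKM with f/f and 113, 119 and 134 with d/d. The highest d/d library, replicate 3, was just under the lowest f/f library, replicate 3. The log2 fold change was -0.54, with limma's adjusted p = 0.156 (95% interval -1.03 to -0.05) and an exact permutation p = 0.1. At least 95.4% of the genes above 0 had a lower value in each library. In the annotation 33.4% of the exonic bases of Ramp2 also belong to exons of Vps25 on the same strand, so part of its fragments may be shared with that gene.

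Ramp3, the partner gene of the other adrenomedullin receptor (ENSMUSG00000041046, chromosome 11, 6658521 to 6677475, plus strand), was high in a single library. Levels were 28.2, 20.9 and 24.6 FPKM with f/f, and 36.9, 20.4 and 109 with d/d. Replicate 3 of d/d stood at 4.44 times the f/f mean, while replicate 2 was below it at 0.83 times. The log2 fold change was 0.82, with limma's adjusted p = 0.403 (95% interval -0.56 to 2.19) and an exact permutation p = 0.4. Without d/d replicate 3 it was 0.17. A pseudogene on the other strand, Gm11978, covers 101 exonic bases of Ramp3.

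The order of the members by level differed between the genotypes in its middle part. In f/f libraries the order by median was Ramp2, Ramp1, Ramp3, Calcrl, Adm, Calca, Calcb, Adm2 and Calcr. The ranges of Ramp1 and Ramp3, of Adm and Calca, and of Adm2 and Calcr met, and the other neighbours did not overlap. In d/d libraries it was Ramp2, Ramp3, Calcrl, Ramp1, Adm, Calcb, Calca, Adm2 and Calcr. There the ranges of Ramp3 and Calcrl, of Calcrl and Ramp1, of Ramp1 and Adm, of Calcb and Calca, and of Calca and Adm2 met.

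The make-up of the partner RNA and its ratio to the receptor were computed within each library, which removes any scaling between libraries. Ramp1 made up 11.6%, 12.1% and 17.8% of the summed Ramp FPKM in f/f libraries and 5.99%, 13.7% and 1.63% in d/d libraries. Ramp3 made up 11.8%, 7.49% and 12.7% in f/f and 23.2%, 12.6% and 44.2% in d/d libraries. Ramp2 held the largest share in each library, at 69.5% to 80.5% in f/f and 54.2% to 73.6% in d/d libraries. The d/d minus f/f differences were -6.73, -9.30 and 16.0 percentage points for Ramp1, Ramp2 and Ramp3. None was beyond the spread by exact two-sided permutation tests (p = 0.3, 0.3 and 0.2; 0.3 each when adjusted over the 3 shares). In d/d replicates 1 and 3 Ramp3 exceeded Ramp1 by 3.86 and 27.1 times, while in f/f libraries and d/d replicate 2 the ratio was 0.621 to 1.01.

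Against the receptor, Ramp1 also showed no overlap between the genotypes. The ratio of Ramp1 to Calcrl was 1.66, 2.00 and 2.13 with f/f, against 0.700, 0.735 and 0.458 with d/d. Means were 1.93 ± 0.245 and 0.631 ± 0.151 (SD, n = 3 each), lower in 3 of 3 d/d libraries (exact two-sided permutation p = 0.1, the smallest possible). With any library left out the difference of -1.30 stayed between -1.43 and -1.20. This ratio was chosen after the members' values had been seen. The ratio of summed Ramp FPKM to Calcrl did not separate the genotypes, at 12.0 to 16.6 in f/f and 5.36 to 28.1 in d/d libraries (exact permutation p = 1.0).

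**Figure D2:**
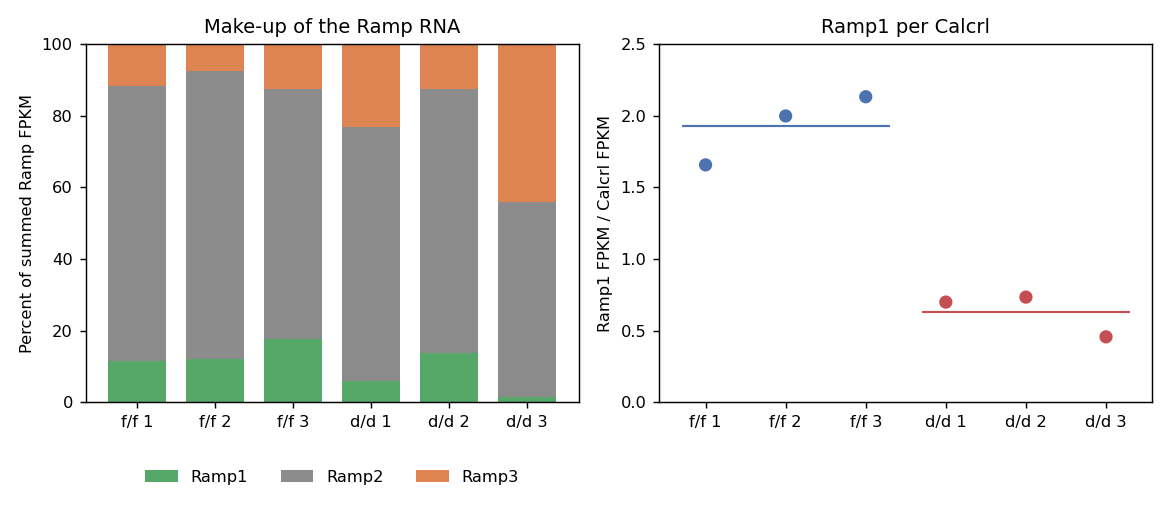
The left panel stacks Ramp1, Ramp2 and Ramp3 as percent of their summed FPKM in each library, and the right panel plots the ratio of Ramp1 to Calcrl FPKM with a line at the mean of each genotype. The Ramp3 share reaches 44.2% in d/d replicate 3, and the 3 ratios of d/d libraries, 0.458 to 0.735, lie below the 3 of f/f libraries, 1.66 to 2.13.

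Markers of other cells also differed between libraries, and their part in these results was not tested. Blood endothelium, where Calcrl and Ramp2 are known to be expressed, had a summed level over 10 markers of 615, 680 and 445 FPKM in f/f and 372, 420 and 257 FPKM in d/d libraries. Of the 10 markers, 1 was called lower (Cdh5), where 3.81% of all genes tested were. No marker of this list was called without the filter, with libraries weighted by genotype, or without f/f replicate 1, 2 or 3. Each d/d library was below each f/f library for 7 of the 10 markers, or 70.0%, against 17.8% of all genes tested. Pecam1, Erg and Cldn5 overlapped, with log2 fold changes of -0.58, -0.60 and 0.21, so Cldn5 went the other way. Per 1000 FPKM of summed endothelial markers, Ramp2 amounted to 298, 330 and 303 with f/f, against 304, 283 and 520 with d/d. Calcrl per 1000 FPKM of these markers was at 27.3, 24.7 and 36.5 in f/f and at 36.7, 71.8 and 34.2 in d/d libraries. On this scale the genotypes overlapped for both genes, and Calcrl was highest in d/d replicate 2.

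That library, d/d replicate 2, also had by far the most myeloid RNA, and the highest summed lymphatic (51.4 FPKM) and stromal (3125 FPKM) levels of the 6. The summed level of 6 macrophage markers was 252 to 369 FPKM in f/f libraries and 969, 4400 and 301 in d/d replicates 1, 2 and 3, and that of 6 neutrophil markers was 3.06 to 8.02 and 15.8, 991 and 26.9. In d/d replicate 3 the neutrophil sum was mostly Ly6g (25.0 FPKM). There S100a8 (0.238 FPKM), S100a9 (listed as 0) and Cxcr2 (0.0303) were below each f/f library, and Mpo (1.63) was above each. Elane, a granule gene on the neutrophil list, was at 0 in all 6. The library with the high Ramp3 and Adm2 values, d/d replicate 3, had the highest summed epithelial level (2481 FPKM). There Epcam, Cdh1, Krt8, Krt19 and Krt7 were at their highest of the 6 libraries, whereas Krt18 and Cldn4 were higher in d/d replicate 1 and Cldn3 was below each f/f library. The summed level of 6 stromal markers was 1862 to 2097 FPKM in f/f libraries and 1269, 3125 and 2357 in d/d libraries, a sum carried by the matrix genes Dcn, Col1a1, Col1a2 and Lum. Those matrix genes had positive log2 fold changes (0.62, 0.15, 0.16 and 0.98), and in d/d each was lowest in replicate 1. The other 2 stromal markers were lower in each d/d library than in any f/f library (33.3% of the list, against 17.8% of all genes tested). They were Vim, at 562, 575 and 649 FPKM against 211, 403 and 174, and Pdgfra, at 41.1, 32.5 and 50.7 against 9.97, 31.7 and 9.06. Neither passed the test (limma adjusted p = 0.0647 and 0.114), and in d/d both were highest in replicate 2 and lowest in replicate 3. Ramp1 had that order too, which was seen after the values were known, and a link was not tested. Smooth muscle markers summed to 2349 to 5740 and 1028 to 4648 FPKM, lymphatic markers to 14.0 to 33.6 and 19.2 to 51.4, Schwann cell markers to 10.7 to 13.1 and 6.94 to 18.3, and neuronal and neuroendocrine markers to at most 16.1 and 11.9.

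**Figure D3:**
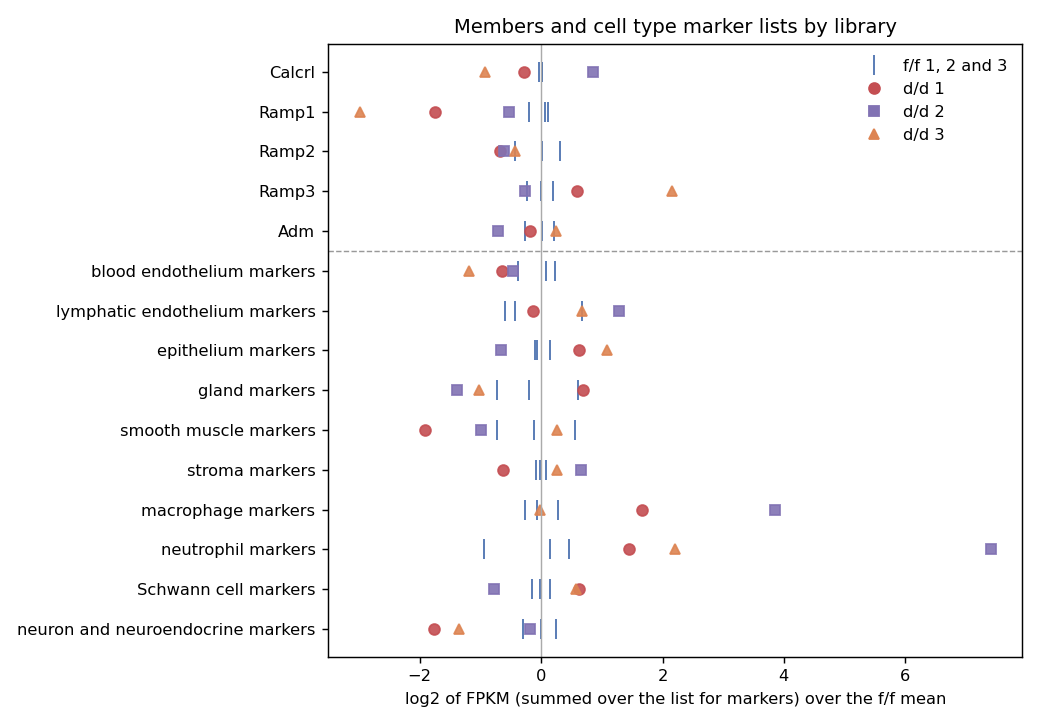
Level of 5 members (upper rows) and summed level of 10 cell type marker lists (lower rows) in each library as log2 over the f/f mean, with f/f libraries as blue ticks and d/d libraries as symbols. Calcrl is highest in d/d replicate 2, where macrophage, neutrophil, lymphatic and stromal marker sums are highest. Ramp3 is highest in d/d replicate 3, where the epithelial marker sum is highest.

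Among genes that mature and remove these peptides, calls were made in both directions. Of 6 tested maturation genes 2 were called higher and 1 lower (median log2 fold change 0.51), where 3.49% and 3.81% of all genes tested were. Pam, whose enzyme adds the carboxy-terminal amide that CGRP and adrenomedullin need for activity, rose from 35.2 ± 6.19 to 99.9 ± 6.39 FPKM (SD, n = 3 each; log2 fold change 1.49, limma adjusted p = 0.00981). Its f/f values of 28.0, 38.7 and 38.8 FPKM lay far below its d/d values of 103, 104 and 92.5. Pam missed the threshold with the replicate number as a block (limma adjusted p = 0.0531) and without f/f replicate 1 or 2 (0.0578 and 0.0631). Furin, a convertase gene, rose by 0.82 on the log2 scale (limma adjusted p = 0.0479). That call was lost with libraries scaled to 1 median (0.0572), without the filter (0.0635), without the intensity trend (0.0514) and without d/d replicate 2 (0.0600). It was also lost with the replicate number as a block (0.0908) and without f/f replicate 1, 2 or 3 (0.191, 0.176 and 0.145). Pcsk5, another convertase gene, fell from 25.7 ± 2.29 to 3.36 ± 0.379 FPKM (a log2 difference of -2.615, limma adjusted p = 0.00365), while Pcsk6, at a log2 fold change of 1.62, missed the threshold (adjusted p = 0.0991).

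Of 5 tested breakdown and scavenging genes 1 was called lower and 0 higher (median log2 fold change -0.23), against 3.81% and 3.49% of all genes tested. Mme encodes neprilysin, a surface peptidase that cleaves CGRP and adrenomedullin among other peptides. It fell 12.1-fold by the means, from 123, 134 and 159 FPKM in f/f to 22.9, 9.97 and 1.61 in d/d libraries (limma adjusted p = 0.0348). The call on Mme was lost without the filter (0.0562) and with the replicate number as a block (0.0817). It was also lost without f/f replicate 1, 2 or 3 (0.141, 0.141 and 0.127). Ece2 and Ece1, genes of endothelin-converting enzymes, missed the threshold, with log2 fold changes of -0.89 and 0.72. Ace, the gene of angiotensin-converting enzyme, had means of 6.24 ± 2.63 and 10.6 ± 9.37 FPKM (n = 3 each, limma adjusted p = 0.681). Ackr3, the gene of a decoy receptor that also takes up adrenomedullin, had means of 11.4 ± 1.29 and 10.8 ± 7.03 FPKM (n = 3 each, limma adjusted p = 0.738).

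A list of 8 other receptors that can bind a Ramp and other peptides of the family had 3 tested genes. Of these 2 were called lower and 0 higher (median log2 fold change -1.41), against 3.81% and 3.49% of all genes tested. Pth1r, the parathyroid hormone receptor gene, fell from f/f values of 50.9, 47.4 and 50.4 FPKM to 17.9, 16.5 and 12.6 in d/d libraries (log2 fold change -1.62, limma adjusted p = 0.00815). Vipr2, a receptor gene for vasoactive intestinal peptide, fell from 3.93 ± 0.300 to 0.910 ± 0.551 FPKM (n = 3 each, adjusted p = 0.0321). With a pseudocount of 0.1 the call on Vipr2 was lost (limma adjusted p = 0.0628). Neither gene was called without f/f replicate 1 or without f/f replicate 2. Only 1 gene of the list was called with the replicate number as a block, and only 1 without f/f replicate 3. Gper1 was at 6.25 ± 1.28 and 3.84 ± 3.01 FPKM and did not pass (adjusted p = 0.331).

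None of 24 transduction genes passed by limma. The genotypes did not overlap for 9 of them (37.5%, against 35.9% of all genes tested), 6 with d/d below (25.0%, against 17.8%) and 3 with d/d above (12.5%, against 18.1%). By limma, the lowest p belonged to Nos3, the endothelial nitric oxide synthase gene through which CGRP and adrenomedullin can relax vessels, at 9.39 ± 1.83 and 4.98 ± 1.48 FPKM (adjusted p = 0.0870, n = 3 each). The adenylyl cyclase genes Adcy4, Adcy9 and Adcy3 differed by -0.85, -0.685 and -0.76 on the log2 scale and missed the threshold (adjusted p = 0.0870, 0.1005 and 0.203). Without d/d replicate 2, 3 of the 24 were called lower. Crcp, the gene of a CGRP receptor component, was at 17.7 to 19.4 FPKM in f/f and 17.0 to 26.2 in d/d libraries.

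Hypoxia is a known stimulus of Adm, and its response genes were listed for that reason. Of 14 tested genes 1 was called higher and 1 lower (median log2 fold change 0.13), where 3.49% and 3.81% of all genes tested were. Egln3, an oxygen sensor gene, rose from 1.84 ± 0.271 to 22.6 ± 16.7 FPKM (n = 3 each, limma adjusted p = 0.0384). It missed the threshold without the filter (0.0624), without d/d replicate 2 (0.0582) and with the replicate number as a block (0.0815). Without f/f replicate 1, 2 or 3 its adjusted p was 0.155, 0.146 and 0.137. Pfkfb3, a glycolysis regulator gene, fell from 98.1 to 103 FPKM with f/f to 12.4 to 34.3 with d/d (adjusted p = 0.0235). Its call was lost with the block (0.0631) and without f/f replicate 1, 2 or 3 (0.12, 0.1165 and 0.0948). Hif1a and Car9 differed by -0.61 and 1.59 on the log2 scale without passing (adjusted p = 0.05065 and 0.0618). Among the alternatives, Hif1a passed only with libraries scaled to 1 median (limma adjusted p = 0.03996), with quantile normalization (0.02137) and without d/d replicate 3 (0.04856). Car9 passed in no alternative. Adm itself overlapped between the genotypes, as given above.

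The 5 pathway lists were chosen with earlier results of these data known, so their share of calls is a description. Over these lists, 8 of 52 tested genes were called (3 higher, 5 lower), or 15.4% against 7.30% of all genes tested. The median log2 fold change of the 52 was -0.04. With libraries scaled to 1 median 2 were higher and 6 lower, and with quantile normalization 3 and 6. With an f/f library left out few calls were made: 0 of the 52 were called without f/f replicate 1 (2292 of all genes had an unadjusted p under 0.05 then), 1 without f/f replicate 2 (Pcsk5) and 3 without f/f replicate 3.

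**Figure D4:**
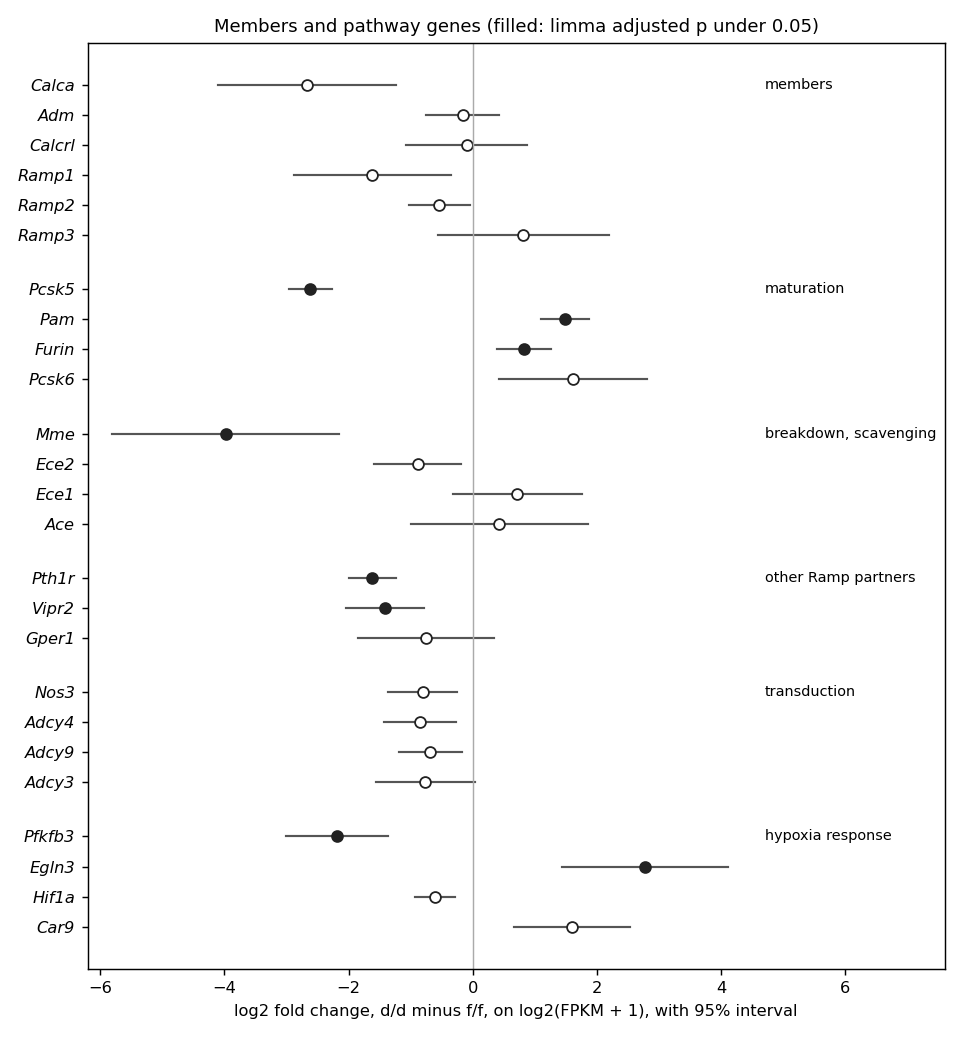
Log2 fold change (d/d over f/f, from log2(FPKM + 1) values) with its 95% interval for the 6 tested members and for up to 4 genes of each pathway list in order of p, with filled points for a limma adjusted p under 0.05. No member is filled, and the largest fall among the pathway genes shown is that of Mme at -3.98.

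Among 12669 other tested genes, those with the most similar course over the 6 libraries were sought for the 5 tested members with no 0 (Calcb has no 0 but was not tested). The measure was the root mean square difference of log2(FPKM + 1), each gene taken relative to its f/f mean. Closest to Ramp1 were Lrrn1 (0.24), Col11a1 (0.32) and Hgf, the hepatocyte growth factor gene (0.32). Closest to Ramp3 were Lrrc26 (0.13), the choline transporter family gene Slc44a4 (0.18) and Col6a4 (0.19). Closest to Ramp2 were Plk2 (0.07), Klhl4 (0.09) and Gchfr (0.10). Closest to Calcrl were Cbfa2t3, Wipf1 and Tubb4a (0.10 each), and closest to Adm were Zbtb8a (0.06), Lars2 (0.07) and Pdss2 (0.08). Ramp1 had no gene nearer than 0.24, whereas the other 4 members had a gene within 0.14. These are the nearest of many genes over 6 shared libraries and are a description.

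The 250 bases before the start of Calca, Ramp1 and Ramp3 are shown because these members had the largest log2 fold changes of the tested members, the former pair negative and the latter positive. Sequences are from RefSeq (GRCm38.p6), where 7 of the 9 members had an entry. They are written in the direction of the gene, with matches to the motifs searched in capitals.
Calca, chr7:114636358-114636607, minus strand: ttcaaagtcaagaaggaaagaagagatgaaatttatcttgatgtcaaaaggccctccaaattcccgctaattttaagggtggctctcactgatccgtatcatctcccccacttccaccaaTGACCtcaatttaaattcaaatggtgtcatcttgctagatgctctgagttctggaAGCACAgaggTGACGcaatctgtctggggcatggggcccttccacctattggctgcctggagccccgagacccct
Ramp1, chr1:91179572-91179821, plus strand: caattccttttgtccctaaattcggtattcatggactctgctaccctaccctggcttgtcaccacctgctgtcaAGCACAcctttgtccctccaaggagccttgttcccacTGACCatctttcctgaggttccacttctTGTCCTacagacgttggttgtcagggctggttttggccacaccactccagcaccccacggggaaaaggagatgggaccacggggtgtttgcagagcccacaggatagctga
Ramp3, chr11:6658283-6658532, plus strand: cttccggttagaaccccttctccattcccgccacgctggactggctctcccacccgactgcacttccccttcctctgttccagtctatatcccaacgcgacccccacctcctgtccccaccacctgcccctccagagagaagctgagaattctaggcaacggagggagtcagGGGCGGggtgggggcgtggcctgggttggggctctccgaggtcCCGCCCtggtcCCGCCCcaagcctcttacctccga

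Short motifs were searched on both strands of these windows and of 32851 windows of the same length. The core of the cyclic AMP response element, TGACG, was found in the window of Calca, 65 bases before the start, and in 17.8% of all windows. The steroid receptor core TGTNCT matched 1 site in Calca and 2 in Ramp1 and was in 44.7% of windows. The estrogen receptor core GGTCA matched 1 site each in Calca and Ramp1 and was in 35.2%. Ramp3 held 3 matches to the GC box GGGCGG, found in 32.7% of windows. Windows of other members held such matches too. TGACG was in Calcr, TGTNCT in Adm2 and Calcr, GGTCA in Adm, and GGGCGG in Adm, Calcr and Calcrl. The hypoxia core ACGTG, found in 16.6% of windows, was in no window of a member. The full cyclic AMP element TGACGTCA (which holds TGACG), the full progesterone receptor element and the full estrogen response element (which holds GGTCA) were in no window of a member and in 1.55%, 0.387% and 0.0639% of all windows. A match is a run of letters and no evidence of binding.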

How the data were processed

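Whole-uterus RNA was sequenced in 6 libraries, 3 per genotype. Libraries were made with a TruSeq RNA kit from TRIzol RNA, per the labels' protocols. The authors deposited 1 value per gene and library, taken as FPKM; the unit is inferred. The tools HISAT2 2.2.1 and Cufflinks 2.2.1 and the builds mm9 and mm10 are listed without roles, per the submitters' processing notes. The sources used here give no annotation, options or strand use. Coordinates are from GENCODE M21 (GRCm38), matched by Ensembl ID.

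Of 21936 rows, 36 repeated symbols were dropped in favour of the row with the highest mean. Genes with at least 1 FPKM in at least 3 libraries entered limma 3.58.1 (R 4.3.3) as log2(FPKM + 1) values (genotype model, intensity trend, two-sided, Benjamini-Hochberg over all genes tested). Fold changes on this scale understate the change of low genes. The members and the gene lists were chosen with earlier results of these data known. From the breakdown and scavenging list 1 gene is not reported here and is left out of the counts. Named genes are the 9 members, Mettl3, up to 4 genes per pathway list in order of p and the 3 closest genes per tested member with no 0, leaving out Gm and Rik names; Crcp, Ackr3, Ide, the marker genes and the genes under other observations were named after their values were seen. On simulated data 200 of 12979 genes were changed (10 draws), drawn from genes with a mean log2(FPKM + 1) above 2. The test recovered 48.9%, 81.6% and 92.6% of changes of 1, 2 and 3 on the log2 scale. These rates do not cover lower genes such as Calca. Alternatives covered the pseudocount, the filter, scaling, spread, trend, the replicate number as a block and each library left out.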

Additional observations from a re-analysis of the deposited data

How the results depend on the processing

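Of the 6 tested members, the direction of Calca, Ramp1, Ramp2 and Ramp3 held under the 13 alternatives run. Calca ranged from -4.91 to -1.95 (adjusted p from 0.0274 to 0.168, under 0.05 in 3), Ramp1 from -2.18 to -1.07 (0.0221 to 0.294, under 0.05 in 1), Ramp2 from -0.73 to -0.37 and Ramp3 from 0.17 to 1.35. Adm ranged from -0.36 to 0.045 with a library left out and turned positive without d/d replicate 2. Calcrl ranged from -0.56 to 0.28 and turned positive without d/d replicate 3. The number of called members was 1 with a pseudocount of 0.1, 1 with libraries scaled to 1 median, and 0 to 1 with a library left out.

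The replicate numbers share no stated animal, litter or day. Deviations of same-numbered libraries correlated at -0.0202, 0.0203 and -0.0207, and those of differently numbered f/f and d/d libraries at -0.141 to 0.125. So few libraries cannot decide whether the numbers pair them. With the replicate number as a block, 100 genes were called over all genes, against 947 without it, 0 members and 2 pathway genes. That fit has fewer residual degrees of freedom. Without a filter on low values 5 pathway genes were called. With 1 library left out, the calls over all genes ranged from 0 to 1367 (0, 30 and 111 without f/f replicates 1, 2 and 3) and those among pathway genes from 0 to 11. The differences in Ramp shares ranged from -10.03 to -3.99 (Ramp1), -13.0 to -3.27 (Ramp2) and 7.25 to 23.0 (Ramp3) percentage points, with the smallest sizes without d/d replicate 3. Absolute depth is unknown, so no counting error can be given for Calcb, Adm2 or the d/d values of Calca.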

Other observations

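Iapp, Vipr1, Gcgr, Casr and Crhr1, which were on the list of Pth1r but not tested, were at the low end of the measured range. Iapp, the amylin gene, had 0.093 and 0.095 FPKM in replicates 1 and 2 of d/d, and the other 4 libraries list it as 0. Vipr1, the other receptor gene for vasoactive intestinal peptide, had f/f values of 1.12, 1.10 and 0.408 FPKM and d/d values of 0.282, 0.334 and 0.346. Crhr1 was listed at 0 in all 6 libraries. Among peptide convertase genes of neuroendocrine cells, Pcsk1 was at most 0.300 FPKM and Pcsk2 at most 0.0624 in any library. Cpe, the gene of the carboxypeptidase that trims peptide hormones, was far higher and spread widely, with f/f values of 130, 145 and 93.1 FPKM and d/d values of 163, 319 and 37.5 (limma adjusted p = 0.971).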
